A study of Mus musculus with 4 samples.

Results

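The response of hypoxic tumor cells to IFN-γ was described over all genes, by setting the library of IFN-γ treated hypoxic cells against the library of untreated hypoxic cells. These are 2 of the 4 RNA-seq libraries of the study, and the other two are the same pair of conditions under normoxia. All were made from MC38, a mouse colon carcinoma cell line, with the genotype given as WT, and 1 biological sample stands behind each condition. Hypoxic cells were kept at 1.5% oxygen and normoxic cells at 20%, and the methods give 5 ng/mL IFN-γ for 24 h for most experiments. Both hypoxic groups therefore share the cell line and the low oxygen, and differ by IFN-γ. The comparison asks what IFN-γ does to transcripts when oxygen is low. Of the 27179 genes in the count table, 27178 were described and 12598 reached a mean of 20 counts over the hypoxic pair, the level required of a gene before it was called.

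IFN-γ is a cytokine released mainly by T cells and natural killer cells. It binds a receptor of IFNGR1 and IFNGR2 chains, the kinases JAK1 and JAK2 are activated, and phosphorylated STAT proteins move to the nucleus, where they bind GAS elements. Transcription factors made in this first step, IRF1 among them, then act on GAAA-rich elements of further genes. In tumor cells the pathway is known for raising antigen presentation, T cell attracting chemokines and the checkpoint ligand PD-L1. Cells at low oxygen stabilize HIF-1α, which drives glycolysis and related genes.

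With 1 library a side, no test was possible and no p-value is given. A change is the log2 ratio of TMM-scaled CPM, the count relative to the library's total, with 0.5 counts added, and its 95% interval (Clopper-Pearson) is that of the ratio of the 2 counts. The interval covers counting error only and compares these libraries, not the conditions. Variation between cultures was not measured. A gene was called raised at a log2 ratio of at least 1 and lowered at -1 or less. The hypoxic libraries held 34514248 counts without and 34420642 counts with IFN-γ, so 3 counts, the floor for a gene at 0, stand for 0.0868 and 0.0876 CPM. Of the 10591 genes with at least 100 counts in both libraries, 42.6% had an interval that excluded 0, although the central 95% of their log2 ratios ran only from -0.31 to 0.50. An interval that excludes 0 was therefore common among well-counted genes.

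The labels were checked against marker genes. The hypoxia-induced Car9, encoding carbonic anhydrase IX, had 422 counts in the normoxic and 1733 in the hypoxic control library, and the mitophagy receptor gene Bnip3 had 4481 and 14535. Of 9 colon epithelium markers, Epcam, Cdh1 and Cdx2 were at 0 in both hypoxic libraries and only Krt20 and Krt8 passed the filter, the latter with 56 and 48 counts, whereas the mesenchymal gene Vim had 81307 and 75215. Vim is 1 of 5 mesenchyme markers listed and made up nearly all of their summed 2359 CPM in the hypoxic control. The mesenchymal collagen gene Col1a1 had 33 and 29 counts, fewer than Krt8. Epcam, Cdh1 and Cdx2 were thus not detected in a line labelled as colon cancer cells. The high summed level of this mesenchyme list rested on Vim, but other matrix genes were also well counted. Of a separate list of 24 matrix and TGF-β target genes, 17 passed. Among them Fn1, Col3a1 and Sparc had 518, 93.7 and 47.5 CPM in the hypoxic control, and Thbs1 had 0.752. Of 8 leukocyte markers, 5 were at 0 in both hypoxic libraries, the pan-leukocyte gene Ptprc had 7 and 2 counts, and only Cd68 passed the filter, with 236 and 170. The summed level of the leukocyte list was 7.03 CPM without and 5.05 CPM with IFN-γ. As in any bulk library, fewer cells with a transcript and less of it per cell cannot be told apart.

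Many more genes were raised than lowered by IFN-γ in hypoxic cells, and the raised genes changed further. Of the 12598 genes, 249 (1.98%) were raised and 67 (0.532%) were lowered. A log2 ratio of at least 2 was reached by 89 of the raised genes, one of at least 4 by 29, and one of -2 or less by 5 of the lowered genes. The raised genes together took 3614 CPM of the control library and 14323 CPM of the IFN-γ library. The lowered genes took 117 and 45.8 CPM. Counting error touched both directions unequally: the whole interval lay past the call for 163 raised genes and for 8 lowered genes. The median log2 ratio over all genes that passed was -0.02.

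**Figure D1:**
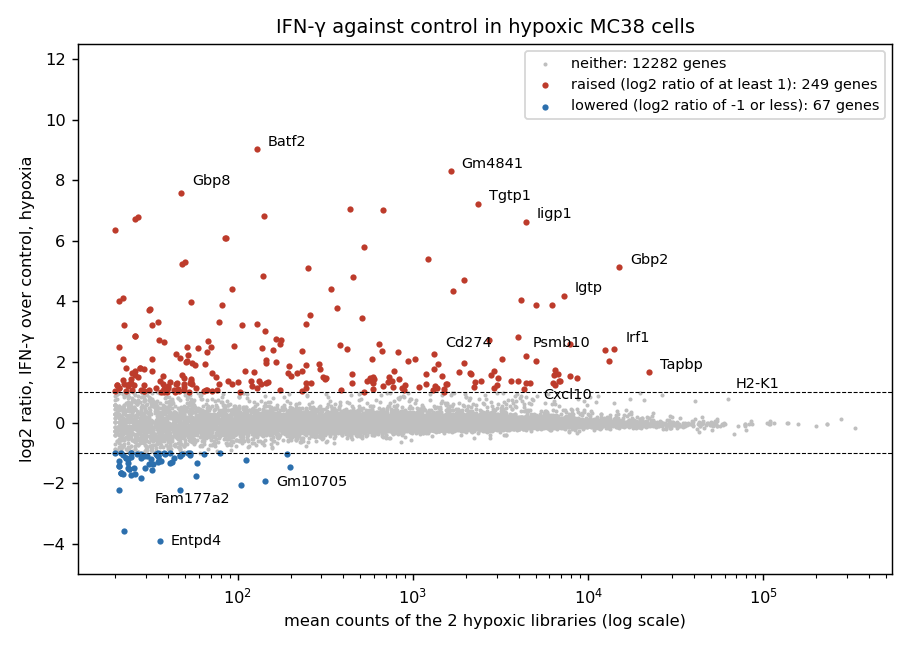
Each point is 1 of the 12598 genes that passed the filter, with its mean count in the hypoxic pair on the horizontal log axis and the log2 ratio of IFN-γ over control on the vertical axis. Red marks the 249 raised, blue the 67 lowered and grey the remaining genes, and dashed lines mark -1 and 1. Raised genes lie along much of the count axis, with Gm4841 at 8.30, while most lowered genes lie at its low end.

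The members of the pathway itself changed little at the level of the receptor and more at the level of transcription factors. Of 12 receptor chains, kinases and STAT genes, 11 passed the filter, 1 was raised, and their median log2 ratio was -0.03, beside -0.02 for all genes. Stat2, a partner of IRF9 in interferon signaling, went from 3224 to 9489 counts, 2.97-fold (95% interval 2.85 to 3.09). Stat3, activated by IL-6 family cytokines, had 2048 and 3990 counts and a log2 ratio of 0.98 (0.90 to 1.05), just under the call. The kinase gene Jak2 had 1343 and 2041 counts with a log2 ratio of 0.62 (0.52 to 0.72), whereas Jak1 had 7201 and 6983 (log2 ratio -0.03). Both receptor chains were slightly lower with IFN-γ, Ifngr1 with 1441 and 1214 counts (log2 ratio -0.23, interval -0.35 to -0.12) and Ifngr2 with 564 and 471 (-0.25, interval -0.43 to -0.07). Neither receptor gene reached a call.

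Among 17 genes that restrain the pathway, 2 were raised and the median was -0.01. Socs1, whose product blocks JAK kinases, went from 371 to 1187 counts, 3.23-fold (2.87 to 3.64). Socs3, a feedback inhibitor of gp130 signaling, went from 249 to 525, 2.13-fold (1.83 to 2.48). Usp18, which removes ISG15 from proteins and dampens interferon receptors, had 802 and 1244 counts with a log2 ratio of 0.65 (0.52 to 0.78). The phosphatase genes Ptpn1, Ptpn2, Ptpn6 and Ptpn11 lay between -0.11 and -0.01.

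Of 9 interferon regulatory factors, 6 passed and 3 were raised. Irf1, the early transcription factor of the response, went from 4422 to 23759 counts, 5.42-fold (log2 ratio 2.44, interval 2.39 to 2.49). Irf7, best known from type I interferon induction, went from 309 to 878, 2.87-fold (2.52 to 3.27). Irf5 had 6 and 64 counts, and with so few control counts its interval spread from 4.68-fold to 30.4-fold. Irf5 also overlaps Tnpo3, which had 7240 and 6578. Irf2, which competes with IRF1 at the same elements, had 1118 and 2205 counts and a log2 ratio of 0.99, also just under the call, and Irf9 had 1446 and 2582 (0.85). Irf3, a constitutive factor downstream of nucleic acid sensors, had 1527 and 1453.

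Of 15 further regulators, 14 passed and 9 were raised, with a median log2 ratio of 1.30. Batf2, an AP-1 family factor, was at 0 in the control and at 258 counts with IFN-γ, at least 86.8-fold higher against the floor of 3 counts. Ciita, the master regulator of MHC class II genes, went from 10 to 152, 15.3-fold (8.12 to 32.6). Nlrc5, which plays this role for class I genes, went from 993 to 6987, 7.10-fold (6.64 to 7.60). The non-coding 9330175E14Rik overlaps Nlrc5 and went from 46 to 307 counts. Whether reads were assigned by strand is not stated, so part of its counts may belong to Nlrc5. Sp110 and Sp140, overlapping genes of nuclear body proteins, went from 218 to 1116 and from 225 to 948.

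The interferon-inducible GTPases, which attack the vacuoles of intracellular pathogens, had the highest medians of all lists over members that passed. A member near 0 in the control passed the filter only if it was high with IFN-γ. The medians and the shares raised are therefore partly set by the filter. This also holds for other lists with such members, among them those of Batf2, H2-Aa, Cxcl9 and Ido1. All 8 guanylate-binding proteins that passed, of 11 listed, were raised, with a median log2 ratio of 4.95 (4.91 with the gene at 0 in the control put at its bound). Gbp2 went from 846 to 29245 counts, 34.9-fold (32.6 to 37.4). Gbp5, which also promotes inflammasome assembly, went from 18 to 1030, 57.7-fold (36.4 to 97.8). Gbp7 went from 475 to 7769 and Gbp3 from 789 to 11552. Gbp8 was at 0 in the control and at 95 with IFN-γ, at least 32.0-fold higher, and shares 31.1% of its words with other genes. Gbp10, Gbp11 and Gbp2b did not pass, with 2 and 26, 0 and 3, and 0 and 2 counts.

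Of 17 immunity-related GTPases, 14 passed and 13 were raised, with a median log2 ratio of 5.06 (4.57 with the gene at 0 put at its bound). The same limit of the filter holds here, and the 3 members that did not pass are not in this median. Gm4841 went from 10 to 3278 counts, 331-fold (180 to 690), and Tgtp1 from 31 to 4646, 151-fold (106 to 223). Tgtp1 shares 84.4% of its 31-base words with Tgtp2, and the pair together went from 87 to 7031 counts, a log2 ratio of 6.34 (6.04 to 6.67). Iigp1 went from 88 to 8711, 99.9-fold (81.0 to 125), and Gm12250 from 10 to 1339, 135-fold (73.2 to 282). The regulatory members had more counts in the control: Irgm1 went from 2259 to 13420, Irgm2 from 646 to 9448 and Igtp from 768 to 13826. Irgq was the exception among those that passed, with 881 and 808 counts. F830016B08Rik was at 0 and 54 counts, at least 18.2-fold higher.

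The promoters of these genes are shown because the response is known to run through short DNA elements, the GAS and the GAAA repeats that IRFs bind. Sequences were taken from RefSeq on GRCm38.p6, the assembly also called mm10. For each gene the 120 bases before a transcription start are printed 5′ to 3′ on the gene's strand. Capitals mark a GAS match (TTCNNNGAA, which reads alike on both strands) or a pair of GAAA words with 2 bases between them on either strand, which appears as TTTC words when it lies on the other strand. Plus-strand stretches lie at chr11:53769894-53770013 for Irf1, chr3:142620543-142620662 for Gbp2, chr3:142559924-142560043 for Gbp3, chr3:142496814-142496933 for Gbp5, chr11:58199436-58199555 for Igtp and chr11:58183723-58183842 for Gm12250. Minus-strand stretches lie at chr11:48992247-48992366 for Tgtp1, chr11:48871421-48871540 for Irgm1 and chr16:10785537-10785656 for Socs1. Where a gene had several starts, the stretch with most matches is shown.
Irf1: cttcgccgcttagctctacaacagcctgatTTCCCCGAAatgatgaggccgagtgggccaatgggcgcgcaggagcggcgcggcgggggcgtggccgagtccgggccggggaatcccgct
Gbp2: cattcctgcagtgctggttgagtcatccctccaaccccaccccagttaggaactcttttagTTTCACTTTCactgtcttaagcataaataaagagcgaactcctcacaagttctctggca
Gbp3: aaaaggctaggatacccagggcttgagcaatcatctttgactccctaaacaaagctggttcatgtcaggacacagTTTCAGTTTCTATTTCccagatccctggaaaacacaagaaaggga
Gbp5: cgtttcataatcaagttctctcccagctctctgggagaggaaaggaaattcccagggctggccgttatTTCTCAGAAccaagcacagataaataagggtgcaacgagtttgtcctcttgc
Igtp: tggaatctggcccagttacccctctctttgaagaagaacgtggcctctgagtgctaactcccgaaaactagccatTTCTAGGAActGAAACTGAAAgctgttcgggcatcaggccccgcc
Tgtp1: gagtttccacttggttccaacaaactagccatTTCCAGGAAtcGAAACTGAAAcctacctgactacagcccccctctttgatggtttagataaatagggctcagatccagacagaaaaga
Irgm1: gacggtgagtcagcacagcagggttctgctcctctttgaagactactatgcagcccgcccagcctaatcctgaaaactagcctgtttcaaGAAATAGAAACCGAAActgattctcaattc
Gm12250: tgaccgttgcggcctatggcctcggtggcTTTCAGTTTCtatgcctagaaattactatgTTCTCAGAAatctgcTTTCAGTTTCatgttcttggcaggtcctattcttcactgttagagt
Socs1: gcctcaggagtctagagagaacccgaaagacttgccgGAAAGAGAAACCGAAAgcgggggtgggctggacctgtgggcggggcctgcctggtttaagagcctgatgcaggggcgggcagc

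In these stretches the match of Irf1 was a GAS whose first base lay 90 bases before the start, and that of Gbp5 a GAS 52 bases before it. Gbp2, Gbp3, Irgm1 and Socs1 held GAAA pairs only. In Gbp3, Irgm1 and Socs1 there were 2 overlapping pairs, that is 3 GAAA words in a row, starting 45, 30 and 83 bases before the start. Igtp and Tgtp1 held a GAS followed by a GAAA pair, 45 and 34 bases before the start in Igtp and 88 and 77 in Tgtp1. Gm12250 held a GAS at 61 bases with GAAA pairs at 91 and 46.

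RefSeq windows of 300 bases, 250 before to 50 after a start, existed for 171 of the 249 raised genes, 213 windows in all. A GAAA pair was found in 23.9% of them and GAS letters in 13.1%, beside 3.44% and 8.30% of all 32851 windows of the table and 3.04% and 6.88% of the 12346 windows of genes that passed. Among raised genes with a log2 ratio of at least 2, 71 windows, the shares were 32.4% and 18.3%. By family, counted over all listed members with a window, raised or not, 5 of 6 windows of guanylate-binding proteins and 8 of 12 of immunity-related GTPases held a GAAA pair. Promoters of Gm4841, Iigp1, F830016B08Rik, Gbp4, Gbp6, Gbp8 and Gbp9 were not analysed here, so the counts leave out some of the most raised members of both families. The 47 windows of lowered genes held 0 GAAA pairs and 2 GAS matches. The windows of Cd274, Tap1, Psmb9, Psmb10 and Tapbp held neither word, which says only that these letters were not in these windows.

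The inducible parts of MHC class I antigen presentation were raised. Of 17 genes that supply peptides to class I molecules, 10 were raised and the median log2 ratio was 1.36. The immunoproteasome subunits were all raised: Psmb9 from 721 to 4718 counts, a log2 ratio of 2.72 (2.61 to 2.84), Psmb10 from 4007 to 20858, 5.25-fold (5.08 to 5.43), and Psmb8 from 3000 to 9948, 3.35-fold (3.21 to 3.49). Their constitutive counterparts were not called, with log2 ratios of -0.11 for Psmb5, -0.02 for Psmb6 and 0.01 for Psmb7. The proteasome activator genes Psme1 and Psme2 went from 3879 to 9867 and from 4081 to 11657, and Psme3, which encodes a nuclear activator, had 12013 and 11893. The peptide transporter genes Tap1 and Tap2 were 4.13-fold and 4.55-fold higher, on 5179 and 21213, and 1600 and 7212 counts. Tapbp, encoding tapasin, went from 10763 to 33666 counts. Psme2 and Tapbp share 33.5% and 26.9% of their words with other genes. The general chaperone genes Calr, Canx and Pdia3 lay between -0.02 and 0.17.

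The class I chains themselves had smaller ratios on larger counts. Of 18 listed, 10 passed and 4 were raised, with a median of 0.86. H2-K1 had 46278 and 79686 counts (log2 ratio 0.80, interval 0.78 to 0.81), H2-D1 30811 and 50085 (0.71, interval 0.69 to 0.73), and B2m, the light chain, 18402 and 34361 (0.91, interval 0.89 to 0.94). All were higher with IFN-γ and none reached the call. The 4 raised members were H2-Q4, H2-T10, H2-M3 and H2-T22, at 2.17-fold to 2.60-fold. H2-T10 is annotated as a transcribed pseudogene, and it is the gene with which H2-T22 shares most words. The H2-K1, H2-D1, H2-Q4 and H2-T22 transcripts share between 22.8% and 67.4% of their words with other annotated genes, so reads may have been split among them.

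MHC class II genes had few counts. Of 12 genes, 7 passed and 2 were raised. H2-Aa was at 0 counts in the control and 52 with IFN-γ, at least 17.5-fold higher, and H2-Eb1 had 80 and 176. H2-Aa passed the filter only through its IFN-γ library. H2-Ab1 did not pass, with 0 and 17 counts. The invariant chain gene Cd74 had 171 and 256 (log2 ratio 0.59, interval 0.31 to 0.88).

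**Figure D2:**
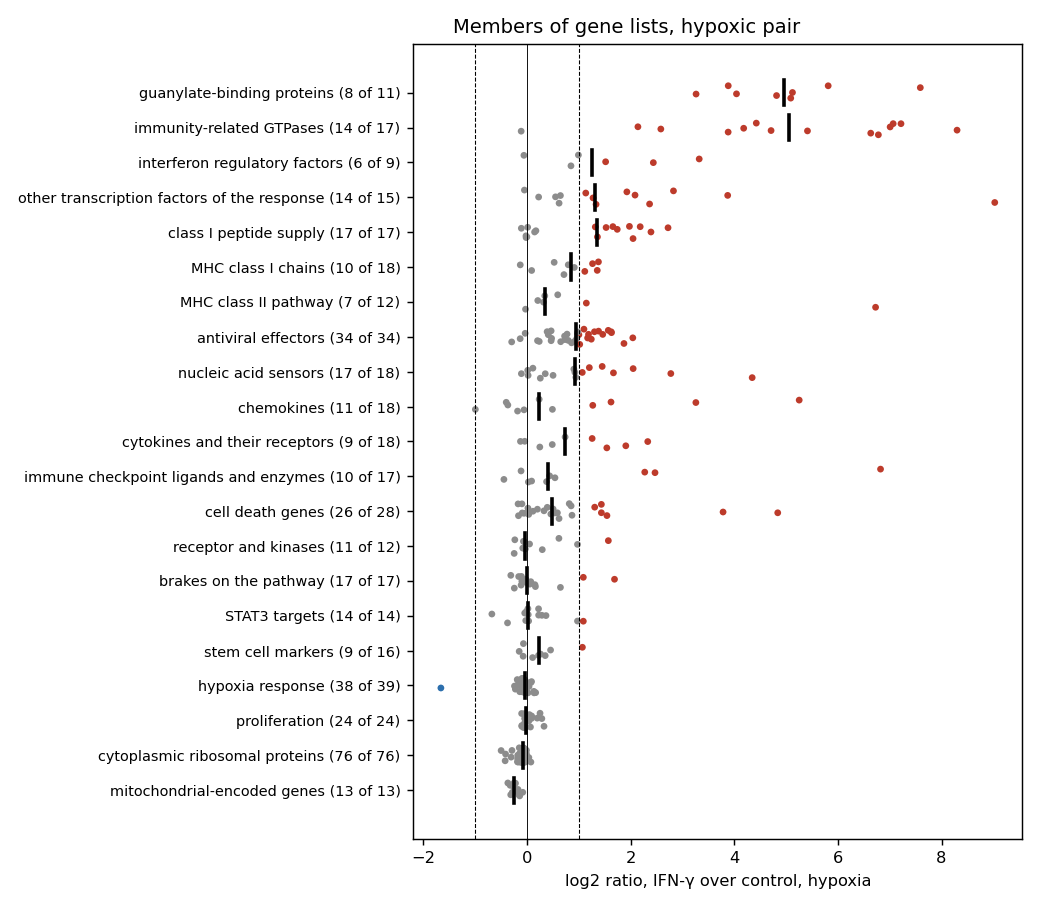
Each row is a gene list and each point a member that passed the filter, placed by its log2 ratio of IFN-γ over control in the hypoxic pair. The vertical spread within a row is only for display. Red points are raised, blue lowered and grey neither, the black bar is the list's median, dashed lines mark -1 and 1, and the brackets give members that passed out of members listed. The medians run from 5.06 for immunity-related GTPases to -0.25 for mitochondrial-encoded genes.

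Of 18 chemokines, 11 passed and 4 were raised. Cxcl10 (chr5:92346638-92348889), a CXCR3 ligand that attracts T cells, went from 3322 to 10134 counts, 3.08-fold (2.96 to 3.20). Cxcl9, another CXCR3 ligand gene, went from 2 to 94, a ratio of 47.4 with an interval from 12.8 to 397. Cxcl11, which RefSeq annotates as a transcribed pseudogene in the mouse, went from 24 to 232, 9.75-fold (6.40 to 15.5). Ccl8 had 29 and 70 counts. Ccl5 had 531 and 740 (log2 ratio 0.49, interval 0.33 to 0.66). Of the 11 chemokines, 3 were lower beyond counting error, none of them called: Cxcl1 had 803 and 603 counts (-0.40), Ccl2 2634 and 2302 (-0.18), and Ccl7 81 and 40, just short of the call (interval -1.59 to -0.44).

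Of 17 checkpoint ligands and enzymes, 10 passed and 3 were raised. Cd274 (chr19:29362107-29388095 on mm10), which encodes PD-L1, went from 457 to 2191 counts, 4.84-fold (4.37 to 5.36). It overlaps Plgrkt on the genome, which had 879 and 1124 counts. Tnfrsf14, encoding the BTLA ligand HVEM, went from 42 to 233, a log2 ratio of 2.47. Ido1, whose product degrades tryptophan, went from 2 to 280, a ratio of 141 with an interval from 38.7 to 1172. Lgals9 (galectin-9) had 2301 and 3317 counts (log2 ratio 0.54) and Nectin2 555 and 404 (-0.44). The second PD-1 ligand gene, Pdcd1lg2, had 0 and 1 counts, and Cd80 was at 0 in both libraries, so a change of either was not detectable at this depth.

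Of 18 cytokines and receptors, 9 passed and 4 were raised. Il15, a growth factor for natural killer and memory T cells, went from 103 to 298 counts, 2.92-fold (2.33 to 3.69), and Il15ra, which presents it, from 275 to 1373, 5.04-fold (4.42 to 5.76). Il18bp, a decoy for IL-18, went from 104 to 388. Csf1, the macrophage growth factor, went from 1781 to 4222, 2.39-fold (2.26 to 2.53). Lif had 941 and 1554 (log2 ratio 0.74).

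All 34 antiviral effectors passed, 14 were raised, and the median log2 ratio was 0.94. Parp14 led with 1986 and 8110 counts, 4.12-fold (3.92 to 4.33). Ifit3 and its near copy Ifit3b went together from 119 to 414 counts, a log2 ratio of 1.81 (1.51 to 2.12). Rsad2, encoding viperin, went from 3869 to 9068 and Oasl2 from 4640 to 12670. Many members lay near the call: Oas2 just above it, and the giant ubiquitin ligase gene Rnf213 (0.98), Isg15 (0.97) and Oas3 (0.96) just below. The IFITM family divided, with Ifitm3 at 0.73 on 15806 and 26018 counts, and Ifitm1 at -0.29 (interval -0.37 to -0.22) on 2914 and 2354.

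Of 18 nucleic acid sensors, 17 passed and 7 were raised. Zbp1, which senses Z-form nucleic acids and can start necroptosis, went from 159 to 3214 counts, 20.4-fold (17.4 to 24.1). The p200 family genes Ifi205, Ifi203, Ifi207 and Mndal were 2.74-fold to 6.92-fold higher, and several share words with related genes (21.9% of Ifi203 and 28.7% of Mndal). Dhx58 and Tlr3 were raised as well, at log2 ratios of 1.20 and 1.07. The DNA sensor genes Cgas (1661 and 1968 counts) and Aim2 (921 and 927) and the adaptor genes Sting1 (328 and 352) and Mavs (2410 and 2413) were not called.

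Of 28 cell death genes, 26 passed and 6 were raised. Apol6 went from 9 to 269 counts, 30.2-fold (15.7 to 66.7), and Tnfsf10, encoding the death ligand TRAIL, from 50 to 689, 13.9-fold (10.4 to 18.9). Xaf1, an antagonist of XIAP, went from 755 to 2182. The inflammatory caspase genes Casp1 and Casp12 went from 326 to 875 and from 451 to 1210 counts, both 2.71-fold, whereas Casp8 had a log2 ratio of -0.05. Gsdmd, the pore-forming target of caspase-1, did not pass, with 0 and 8 counts. The survival genes Mcl1 (6150 and 6233 counts), Bcl2l1 (1946 and 1954) and Bcl2 (221 and 252) were not called.

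Among 16 genes of arginine, tryptophan and pterin metabolism, 11 passed and 4 were raised. Nos2, the inducible nitric oxide synthase, went from 184 to 1099 counts, 6.03-fold (5.15 to 7.08). Ido2 went from 110 to 654, a log2 ratio of 2.58 (2.29 to 2.89), and Acod1, which makes itaconate, from 24 to 90. Of 16 complement genes, 7 passed and 2 were raised, C1ra from 380 to 1072 and C1s1 from 372 to 802. These 2 genes share 59.6% and 47.6% of their words with other genes, so their counts are uncertain. Of 15 adhesion and surface genes, 9 passed and 2 were raised. Ly6a (Sca-1) went from 40 to 474 counts, a log2 ratio of 3.56 (3.11 to 4.08), and Ly6c1 from 6 to 102, 17.2-fold (7.62 to 47.8), and both share words with other Ly6 genes (31.9% and 46.8%).

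Ranked by CPM gained, which favors long and abundant transcripts, the 10 genes at the top included H2-K1, H2-D1 and B2m, which were not called by fold, and Hsp90ab1, a cytosolic chaperone gene. H2-K1 gained 987 CPM, Gbp2 829, Tapbp 671, Hsp90ab1 637, H2-D1 571, Irf1 565, Psmb10 493, B2m 471, Tap1 469 and Igtp 381. For Hsp90ab1 this gain was a log2 ratio of 0.11 on 268548 and 287981 counts.

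The study also asked whether IFN-γ alters stem-like features of the cells, and its markers for this were not called. Sox2 had 1694 and 1513 counts (log2 ratio -0.15, interval -0.25 to -0.05) and Cd44 12673 and 13544 (0.11, interval 0.07 to 0.14). Pou5f1 (Oct4) and Nanog were at 0 in both libraries and Prom1 (CD133) at 2 in each, so none of these could be followed at this depth. Myc, a growth regulator also on the stem cell list, had 2842 and 3289 (0.22, interval 0.15 to 0.30). Of 16 stem cell markers, 9 passed and only Aldh1a1, a retinaldehyde dehydrogenase gene, was raised, from 43 to 90 counts (2.11-fold, interval 1.45 to 3.11). Klf4 had 1210 and 1531 counts (0.35). Lgr5 and Olfm4, markers of intestinal crypts, were at 0. Of 14 STAT3 targets, all passed, Socs3 was raised and the median was 0.03. Osmr, the oncostatin M receptor gene, was next (338 and 659 counts, log2 ratio 0.98), and Cebpd was the lowest (131 and 81, -0.68).

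Hypoxia response genes mostly changed little with IFN-γ, though more of them lay below 0 than above. Of 39 hypoxia response genes, 38 passed, 0 were raised and 1 was lowered, beside 1.98% and 0.532% of all genes. The median log2 ratio was -0.05 beside -0.02 for all genes. Of the 38, 20 lay below 0 beyond counting error and 6 above, beside 2764 and 2211 of all 12598 genes. In the normoxic pair 17 lay below and 4 above. Hif1a had 5224 and 5094 counts (-0.02, interval -0.08 to 0.03) and Egln1, encoding the oxygen sensor PHD2, 9663 and 9329 (-0.04). Vegfa had 4975 and 4828, Slc2a1 10281 and 10833, and Ldha 161768 and 153758. Ddit4, an mTOR inhibitor induced by stress, was lower by a small amount, with 12581 and 10677 counts (-0.22, interval -0.26 to -0.19). The lowered gene, the glucose transporter gene Slc2a3, rested on 33 and 10 counts.

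Proliferation genes were not called either. All 24 passed, and their log2 ratios ran from -0.10 to 0.33 with a median of -0.02. Ccne1 (530 and 660 counts, 0.33), the mitotic transcription factor gene Foxm1 (3459 and 4183, 0.29) and Rrm2 (14767 and 17431, 0.25) were the highest. Among D cyclins and CDK inhibitors, Ccnd1 had 15927 and 19276 counts (0.29) and Cdkn1a 6174 and 5832 (-0.07). Immediate early genes were led by Egr1 with 240 and 349 (0.55, interval 0.31 to 0.80). Of 19 cholesterol synthesis genes and 17 of 24 matrix and TGF-β target genes that passed, 0 were called, and Col3a1 was the lowest of the well-counted ones (3238 and 2233, -0.52). Over all genes that passed, 1.98% were raised and 0.532% lowered. In lists of this size, proliferation genes included, 0 calls therefore says little. Beyond counting error, 11 cholesterol synthesis genes lay below 0 and 1 above, and of the matrix and TGF-β target genes 4 lay below and 2 above. Of 62 replication-dependent histone genes, which lack poly-A tails, 5 passed.

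**Figure D3:**
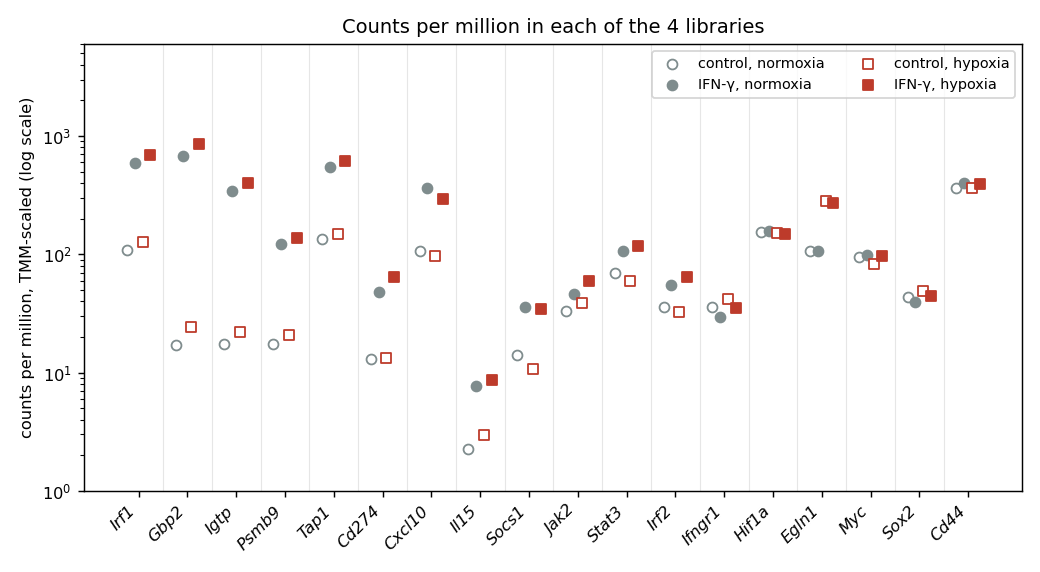
CPM on a log axis for 18 genes in each of the 4 libraries. Circles are normoxic and squares hypoxic libraries, open symbols control and filled symbols IFN-γ. In Gbp2 the filled hypoxic symbol stands 34.9-fold above the open one, whereas in Hif1a, Cd44 and Sox2 they nearly coincide, and Egln1 differs more by oxygen than by IFN-γ.

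Transcripts of the mitochondrial genome were slightly lower with IFN-γ. All 13 protein genes lay below 0, 12 of them beyond counting error, with a median log2 ratio of -0.25. CYTB had 76462 and 58678 counts (-0.37, interval -0.38 to -0.35), ND1 86449 and 71929 (-0.25), and COX1 356520 and 313468 (-0.17). In the normoxic pair the median was -0.04 and 8 of 13 lay below 0. COX1, COX2, COX3, ATP6, ND3, ND4 and ND4L share between 62.8% and 100% of their words with other annotated genes. Their reads may thus have been split. ND1 shares 0% and CYTB 6.55%. The list of nuclear genes for the respiratory chain also held ATP synthase genes and the complex I assembly factor genes Ndufaf1 to Ndufaf8. Its median was -0.09 (-0.01 in the normoxic pair). Of the 88 that passed of 95, 45 lay below 0 beyond counting error and 1 above. The 76 cytoplasmic ribosomal protein genes, a separate machine, had a median of -0.08 (0.00 in the normoxic pair), with 64 below 0 beyond counting error and 2 above. In the normoxic pair 27 ribosomal protein genes were below and 30 above. Over all 12598 genes, 2764 were below 0 beyond counting error and 2211 above. Cox7a1, the 1 subunit called lowered, had 44 and 12 counts. The part of RNA quality or culture state in these small shifts was not tested.

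**Figure D4:**
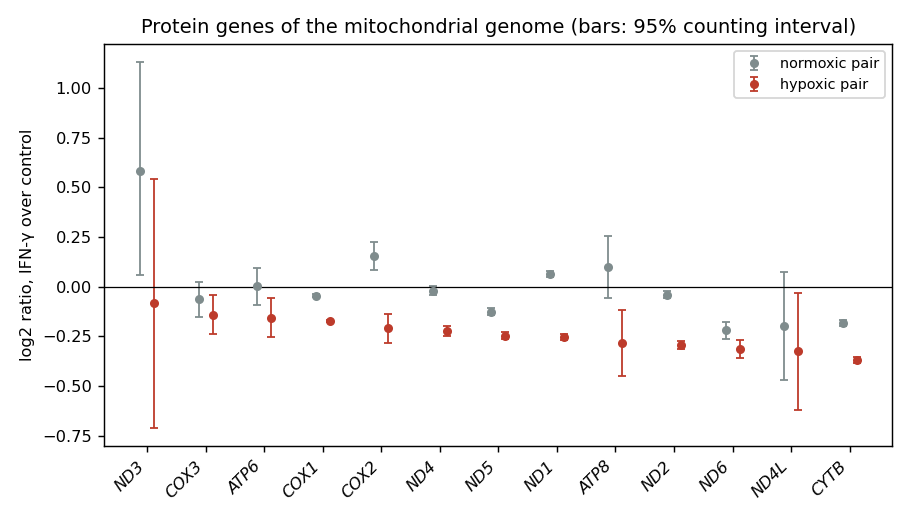
Log2 ratio of IFN-γ over control for the 13 protein genes of the mitochondrial genome in the normoxic (grey) and hypoxic (red) pair, ordered by the hypoxic value. Bars are 95% intervals from counting error. Every hypoxic point, including that of ND3 with 47 and 44 counts, lies below 0 and below the normoxic point of the same gene.

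The 67 lowered genes were mostly sparse. The median counts were 45 in the control and 18 with IFN-γ, 55 of the 67 had a mean under 50, and 12 remained at a mean of at least 50. Fam177a2 was the lowest of them (169 and 40 counts, log2 ratio -2.05, interval -2.60 to -1.56). All of its words occur in Fam177a, and the pair together had 171 and 44 (-1.93). Gm10705 had 228 and 59 counts but shares 90.5% of its words with Ube2l3, and the sum of both had 5573 and 5865 (0.09). Srp54a had 291 and 105 counts while its copy Srp54b had 25 and 51, and with Srp54c the sum was 819 and 664 (-0.29). Nanp, a sialic acid pathway phosphatase gene, had 90 and 26 (-1.76) and shares 52.1% of its words. Mlph, encoding the melanosome adaptor melanophilin, had 259 and 124 (-1.05, interval -1.37 to -0.74), and Acbd7, Gm10145, Gm16576, Tafa5 and Gm8623 lay between -1.32 and -1.02. Mlph and Tafa5 share 3.50% and 0.0695% of their words with other genes, and their normoxic log2 ratios were -0.12 and -0.04.

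The normoxic pair, which shares no library with the hypoxic one, gives the same change at another oxygen level. There 236 genes (1.89% of 12506) were raised and 57 (0.456%) lowered. Raised in both pairs were 173 genes, 69.5% of those raised under hypoxia and 73.3% of those raised under normoxia. Of lowered genes 2 were shared, Fam177a2 and Nanp, 2.99% and 3.51% of the lists. Of the 249 genes raised under hypoxia, 231 also lay above 0 under normoxia. The 18 that did not had means of at most 65.5 counts in the hypoxic pair.

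Among the 93 raised genes with at least 100 counts in all 4 libraries, Pearson's r of the log2 ratios in the pairs was 0.97, and among the 10348 genes so counted that were neither raised nor lowered it was 0.41. Both describe genes that share their libraries, and the 93 were chosen for high ratios in the hypoxic pair. The median difference, hypoxic minus normoxic, was 0.02, and the central 95% of differences ran from -0.34 to 0.40, beside -0.36 to 0.40 over all 10442 genes so counted. Over all 249 raised genes the median difference was 0.15, and over the 236 genes raised in the normoxic pair it was -0.12. The sign followed the pair on which the genes were chosen. No difference between the pairs could be tested with 1 library per condition.

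Within those 93 genes the largest differences belonged to Ctrl, Irak2, Csf1, Cd274 and Socs1. Ctrl, a chymotrypsin-like protease gene, had 105 and 328 counts under hypoxia and 181 and 316 under normoxia, a difference of 0.84 (95% counting interval 0.42 to 1.25). Irak2, a kinase of interleukin-1 and Toll-like receptor signaling, had 131 and 708 against 161 and 589, a difference of 0.56 (0.19 to 0.93). For Csf1 the difference was 0.41 (0.31 to 0.51), with a hypoxic control of 1781 counts below the normoxic one of 2907. Cd274 and Socs1 followed at 0.37 each, with intervals of 0.16 to 0.58 and 0.14 to 0.59. For Cd274 the IFN-γ libraries differed (2191 against 1658 counts) and the controls were close (457 against 447), and for Socs1 it was the reverse (1187 against 1220, and 371 against 492).

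The smallest differences belonged to C1s1 (-0.37, interval -0.63 to -0.11), Psme2 (-0.37, interval -0.44 to -0.29), Uba7 (-0.36, interval -0.61 to -0.11), Nmi (-0.31, interval -0.45 to -0.17) and Trim12a (-0.30, interval -0.59 to -0.01). In each of these the control library was higher under hypoxia. Psme2 had 4081 against 3104 control counts and 11657 against 11423 with IFN-γ. C1s1 and Psme2 share 47.6% and 33.5% of their words with other genes, so reads may have been split. Over the 93 genes, the control level was higher under hypoxia for 72 and the IFN-γ level for 86. A higher hypoxic control was thus common among them. They were chosen for high ratios in the hypoxic pair, and the same shares over all genes were not counted.

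**Figure D5:**
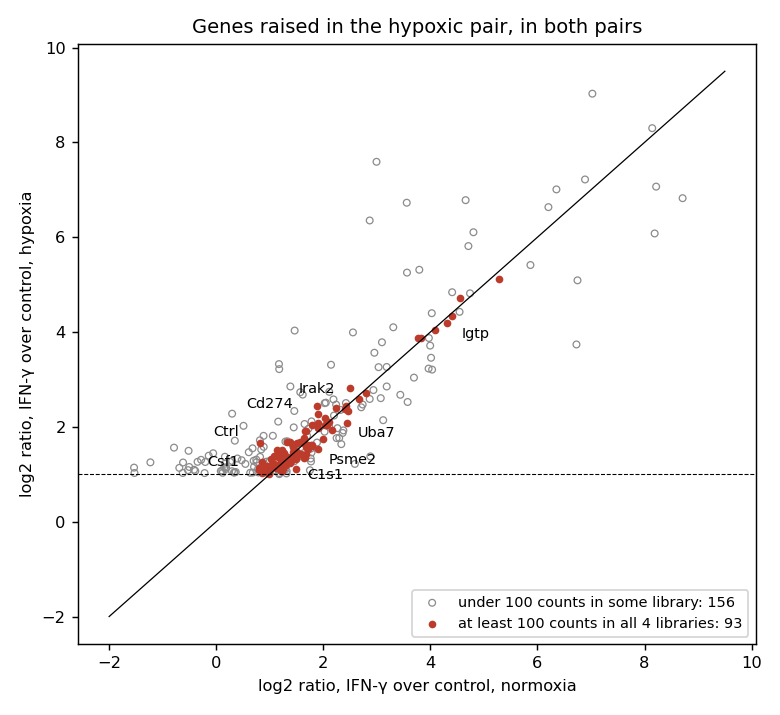
Log2 ratio of IFN-γ over control in the normoxic pair (horizontal) and in the hypoxic pair (vertical) for the 249 genes raised in the hypoxic pair. Filled points are the 93 genes with at least 100 counts in all 4 libraries, the solid line marks equal ratios and the dashed line the call. Filled points keep close to the line, while open points, with fewer counts, scatter to both sides.

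At the edge of the call, the raised genes nearest to it were Oas2 (352 and 699 counts), C230035I16Rik (35 and 70) and Rnf19b (1001 and 2008), the last at a log2 ratio of 1.02. Just below it lay Kash5 (23 and 46), Camsap3 (20 and 40) and Slc15a2 (19 and 38), the last at 0.99. Their intervals overlapped.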

How the data were processed

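RNA of MC38 cells was sequenced as 1 library per condition. Per the labels, libraries were poly-A selected and strand-specific, and read as paired ends on a DNBSEQ instrument. The authors aligned the reads with HISAT2 and deposited whole-number counts per NCBI gene ID, not normalized. The submitters' processing notes name featureCounts and mm10, while the annotation, strand setting and treatment of reads that match several genes are not given in the sources used here.

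Symbols came from RefSeq (GRCm38.p6), which matched 25275 of 27179 IDs. Totals were scaled by TMM (edgeR 4.0.16 in R 4.3.3, over 13580 genes past its filter with a minimum of 10 counts). Log2 ratios of CPM took 0.5 added counts. The exact 95% intervals, computed with scipy 1.17.1, are those of the plain ratio, as are the folds, so that at few counts a fold and a log2 ratio differ slightly. The calls needed a mean of at least 20 counts. The interval of a difference between pairs is a Poisson one. All intervals and the floor of 3 counts cover counting error only, since each condition has 1 library. No molecular identifiers are stated for the reads, so duplicate reads are not accounted for in these intervals. The steps were tested on simulated data. Sequence shared between genes was measured as the share of 31-base words of GENCODE M21 transcripts found in another gene, and 20% was taken as uncertain.

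Gene lists, members and rules were chosen with earlier results of these data known. The genes named were those of the study, up to 6 members per list with the largest ratio plus members needed to account for it, the 10 highest and 10 lowest log2 ratios at a mean of at least 50 counts, the 10 largest CPM gains, the 5 largest and 5 smallest differences between pairs at 100 counts, and 3 genes on either side of the call. Alternatives were DESeq2 1.42.0 size factors, total counts only, 5 counts added, other filters and calls, and promoter stretches of 250 bases. One alternative without sequence-sharing genes and one with genes chosen on the normoxic pair were added after seeing the data. Some genes are not reported here.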

Additional observations from a re-analysis of the deposited data

Results flagged for a closer look

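With 1 library per condition, no search for outlying samples was possible. Among the named genes, 7 moved in opposite directions in the pairs, each beyond its own counting interval. These differences between the hypoxic and the normoxic change were not tested. C3, the central complement gene, had 288 and 364 counts in the hypoxic and 314 and 248 in the normoxic pair, a difference of 0.68, with a counting interval (95%) that started at 0.35. Fn1, encoding fibronectin, had 17926 and 20142 against 17149 and 13791, a difference of 0.48 (0.44 to 0.52). Hsp90ab1 differed by 0.16 (0.15 to 0.17), with 268548 and 287981 counts in the hypoxic and 295309 and 282432 in the normoxic pair.

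The other four were lower with IFN-γ in the hypoxic pair and higher in the normoxic pair. Rps23rg1 differed by -0.68, on 560 and 449 counts against 555 and 711. The ribosomal protein genes Rps29 and Rpl37 differed by -0.34 and -0.24. ND1, of the mitochondrial genome, differed by -0.32. None of the 7 was called in the hypoxic pair, and 95% of the 10442 genes with 100 counts in every library differed between the pairs by between -0.36 and 0.40.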

How the results depend on the processing

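No paired analysis was possible because each condition has 1 library and the result comes from no test, and no library could be left out. The counts of raised and lowered genes were 256 and 61 with DESeq2's size factors and 247 and 68 with total counts only, and the 247 were all among the 249. Without genes that share at least 20% of their words they were 208 and 55. The lowered genes depended most on the settings. With 5 counts added, 224 genes were raised and 38 lowered, at a mean of at least 10 counts 352 and 154, at 50 counts 177 and 12, and with no filter on low counts 1703 and 1562. At a log2 ratio of 2 there were 89 and 5, at 0.5 there were 614 and 341, and with the whole interval past 1 there were 163 and 8.

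The median difference between the pairs over the raised genes, 0.15, was 1.58 with no filter on low counts and -0.12 when the genes were chosen on the normoxic pair. The median of all genes moved by at most 0.01 on the log2 scale with another scaling. Log2 ratios of genes at 0 in the control depend on the added counts: with 5 added, Batf2 was at 5.73, Gbp8 at 4.33, F830016B08Rik at 3.57 and H2-Aa at 3.52. With no filter the median of the guanylate-binding proteins was 4.04, and at a mean of 50 counts that of the chemokines was -0.06. Counting motifs in 250 bases before the start only, 19.2% of the windows of raised genes held a GAAA pair and 10.8% GAS letters. Genes under 20 counts are hardly resolved at this depth.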

Other observations

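Of the 249 raised genes, 151 were in none of the lists, and the following were chosen after their values were seen. Both enzymes that charge and pass on ISG15, the ubiquitin-like interferon protein, were raised: Uba7 from 392 to 1652 counts and Ube2l6 from 1223 to 5178, 4.25-fold and 4.27-fold (95% counting intervals 3.81 to 4.76 and 4.01 to 4.55). The ADP-ribosyltransferase genes Parp10, Parp11 and Parp12 were 2.77-fold, 2.21-fold and 2.50-fold higher, on 1637 and 4496, 855 and 1870, and 3633 and 9013 counts. Mpeg1, encoding the pore-forming perforin-2 best known from macrophages, went from 2 to 170, a ratio of 85.8 with an interval from 23.4 to 714. In the normoxic pair it went from 4 to 124. The apolipoprotein L genes Apol7e and Apol10b went from 8 to 177 and from 86 to 941, and Apol7e shares most of its sequence with related genes. Col5a3, a fibrillar collagen chain gene, went from 882 to 2798 (log2 ratio 1.68), and from 692 to 1792 in the normoxic pair.

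Mdk and Car11, raised under hypoxia from 13 to 29 and from 12 to 29 counts, went from 39 to 13 and from 22 to 9 under normoxia. Mdk overlaps Chrm4 on the genome, which had 1275 and 1191 counts in the hypoxic pair, so some of its reads may belong there. Entpd4 had the lowest log2 ratio of all genes that passed, with 68 and 4 counts. Its copy Entpd4b had 39 and 54, and the sum of both had 107 and 58 (-0.86).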
